A study of Mus musculus with 8 samples.

Results

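The genes described here are those of the major histocompatibility complex (MHC) and of antigen presentation in mouse quadriceps muscle. The rule took every gene symbol that starts with H2-, the prefix of the mouse MHC, together with B2m, Tap1, Tap2, Tapbp, Nlrc5, Ciita and Cd74. Of these 55 symbols, 34 had at least 10 counts summed over the 8 libraries and were kept, out of 35494 symbols in the table. They comprised 19 class I heavy chain rows, 8 class II chain rows and the 7 genes named by symbol. The class I rows include H2-K2, H2-M6-ps and H2-T11-ps, which were treated as pseudogenes. The members nearest to the limit were H2-T7 (10.0 summed counts) and H2-M5 (11) inside it, and H2-T13 (9.84) and H2-Eb2 (9) outside it. Another 16 symbols had no count at all, among them H2-Ea. A count of 0 allows up to 3 counts, or 0.0600 CPM (counts per 1000000 counts of a library, scaled between libraries) where the limit is highest. The C57BL/6 strain is known to carry a deletion in this gene and to lack its product.

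RNA was sequenced from the quadriceps of 8 wild-type male C57BL/6 mice that were 8 weeks old when they were randomised. The 4 scMC38 mice received 1000000 MC38 cells under the skin, and the 4 control mice received phosphate-buffered saline by the same route. MC38 is a colorectal cancer line of C57BL/6 origin, so that tumour and host share their MHC type. Muscle was taken at day 28. Each library came from 1 mouse, and whole muscle was extracted, so that RNA of muscle fibres, vessels, connective tissue and blood cells was measured together. The comparison asks how muscle of tumour-bearing mice differed from that of saline-injected mice, in a model whose series title calls the wasting mild.

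Class I molecules consist of a heavy chain (H2-K1 and H2-D1 are the classical ones in this strain) and beta-2 microglobulin, encoded by B2m. They are made by nearly all nucleated cells and show peptides from inside the cell to CD8 T cells. The peptides are cut by the proteasome, pumped into the endoplasmic reticulum by the transporter of Tap1 and Tap2, and loaded with the help of tapasin (Tapbp). Class II molecules (H2-Aa with H2-Ab1, and H2-Eb1 where its partner chain is made) are found mainly on macrophages, dendritic cells and B cells and show peptides from endosomes to CD4 T cells. Their assembly needs the invariant chain, Cd74, and the exchange factor H2-DM. Transcription of class I genes is driven by Nlrc5 and that of class II genes by Ciita, which act on the same kind of promoter module. Adult muscle fibres make little class I and no class II under normal conditions.

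That promoter module is shown here because genes of both classes carry it, while their mRNA levels differed in how they varied between the mice. Its X2 box binds CREB and ATF family factors, and its Y box, a CCAAT element, binds NF-Y. The following lines give 160 bases before the annotated start of 3 genes of each class, 5′ to 3′ on the strand of the gene, from RefSeq (build GRCm38.p6, on which no other value here rests). Capitals mark in each window 1 chosen pair, the X2 core TGACG or its variant TGATG and the Y box core ATTGG that follows it, and, in B2m, a match to the interferon-stimulated response element (TTTC, any 2 bases and TTTC) on the reverse strand. Other matches, such as a further TGATG in H2-D1, H2-Eb1 and H2-DMb1, are left in lower case.
H2-K1, chr17:34000348-34000507, minus strand: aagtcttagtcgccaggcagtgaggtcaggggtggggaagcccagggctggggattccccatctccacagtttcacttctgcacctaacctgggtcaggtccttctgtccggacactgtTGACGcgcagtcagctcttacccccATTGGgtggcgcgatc
H2-D1, chr17:35262934-35263093, plus strand: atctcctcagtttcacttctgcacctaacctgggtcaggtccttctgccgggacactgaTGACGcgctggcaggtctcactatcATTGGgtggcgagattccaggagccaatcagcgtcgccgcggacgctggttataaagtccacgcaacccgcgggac
B2m, chr2:122147527-122147686, plus strand: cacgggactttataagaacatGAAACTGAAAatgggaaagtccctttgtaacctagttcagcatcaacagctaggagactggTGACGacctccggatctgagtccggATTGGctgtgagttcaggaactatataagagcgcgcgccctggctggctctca
H2-Aa, chr17:34287824-34287983, minus strand: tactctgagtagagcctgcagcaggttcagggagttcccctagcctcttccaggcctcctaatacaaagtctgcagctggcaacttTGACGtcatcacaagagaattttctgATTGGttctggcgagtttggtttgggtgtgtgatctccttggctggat
H2-Eb1, chr17:34305707-34305866, plus strand: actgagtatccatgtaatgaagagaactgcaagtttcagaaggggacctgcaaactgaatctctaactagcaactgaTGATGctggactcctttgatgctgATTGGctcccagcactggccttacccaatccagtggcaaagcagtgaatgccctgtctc
H2-DMb1, chr17:34153031-34153190, plus strand: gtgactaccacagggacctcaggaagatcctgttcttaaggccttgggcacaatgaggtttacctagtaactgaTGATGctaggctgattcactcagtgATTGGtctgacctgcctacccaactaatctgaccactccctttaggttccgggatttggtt

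In these 6 sequences the X2 core or variant was followed by the Y box core after 19 bases (H2-Eb1), 20 bases (H2-K1, H2-D1, B2m and H2-DMb1) or 21 bases (H2-Aa). The class I genes H2-K1, H2-D1 and B2m had TGACG, as did H2-Aa, and the class II genes H2-Eb1 and H2-DMb1 had TGATG at that place. A promoter entry was found for 21 of the 34 members, and the 250 bases before the start were searched. On the forward strand, 10 of the 21 held TGACG or TGATG followed by ATTGG after 18 to 22 bases, compared with 0.347% of 32851 promoters in the table. These 10 were H2-K1, H2-D1, H2-M3, H2-Q6, H2-Q7, B2m, H2-Aa, H2-Eb1, H2-DMb1 and H2-DMb2. With 10 to 40 bases in between, 12 of the 21 members and 1.135% of all promoters held the pair. Searched alone on both strands, ATTGG (reverse CCAAT) was found in 18 of 21 members and in 33.8% of all promoters, and TGACG (reverse CGTCA) in 9 of 21 and 17.8%. The interferon-stimulated element, searched on both strands as TTTC, any 2 bases and TTTC, was found in B2m, H2-T22 and H2-T23 and in 2.98% of all promoters. TGATG (reverse CATCA) overlaps TGACG in TGATGACG. It was found in all of the 21 members except H2-K1, H2-DMa, H2-Oa, H2-Q10 and Tapbp, and in 34.5% of all promoters. The windows of H2-Q10 and H2-DMa held none of these motifs. The variant and the spacing were chosen after the sequences had been read, and a match of letters is not a binding site.

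**Figure D1:**
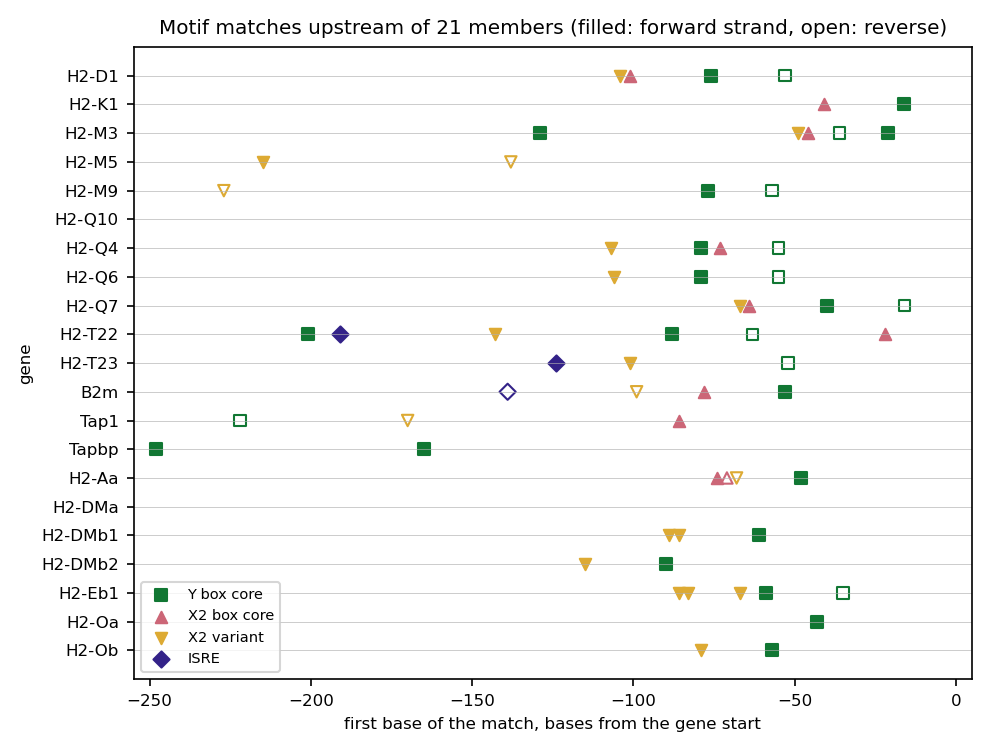
Matches to the Y box core, the X2 core and its variant, and the interferon-stimulated response element in the 250 bases before the start of 21 members. The x axis gives the distance of the first base of each match from the gene start in bases, filled symbols are on the forward strand and open ones on the reverse strand; in H2-K1, H2-D1, B2m and H2-DMb1 an X2 symbol stands 20 bases of sequence before a Y box.

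Libraries held between 50466729 and 62107372 counts. The skeletal muscle genes on a list of 8 (Acta1 and Ckm among them) summed to between 88081 and 124226 CPM in every library, as the tissue label says. Libraries scMC38 1 and 3 stood apart: they held mRNA of marrow progenitors and bone cells (11 genes, all with counts, summing to 120.0 and 975 CPM, against 6.11 to 22.3 CPM in the other 6 libraries). Their 10 neutrophil genes summed to 449 and 4118 CPM, against 18.2 and 37.5 CPM in scMC38 2 and 4 and 5.06 to 10.7 CPM in controls. Genes of MC38 and epithelial cells, 7 on the list, summed to between 1.18 and 1.44 CPM in controls and between 0.265 and 1.15 CPM in scMC38. Cdx2 was at 0 in all 8 libraries. The saline-injected controls had the higher sums, so a sum at this level cannot be read as tumour RNA. Over all 14112 genes tested with edgeR's quasi-likelihood test, 1.2% were called at a Benjamini-Hochberg adjusted p under 0.05, 104 higher and 66 lower in scMC38.

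The MHC classes differed in where their mRNA stood in tumour-bearing mice. Class II chain mRNA was about as high in scMC38 4 as in controls and well above every control in scMC38 1, 2 and 3. The ranges of the groups overlapped in both classes, in class II through scMC38 4. The class II chains summed to 49.9, 70.6, 76.4 and 86.2 CPM in controls 1 to 4 and to 144, 162, 147 and 71.7 CPM in scMC38 1 to 4. The means were 70.8 ± 15.3 CPM in controls and 131 ± 40.3 CPM in scMC38 (SD, n = 4), a ratio of 1.85. The class I heavy chains summed to 200.0, 290.4, 233 and 264 CPM in controls and to 220, 206, 335 and 197 CPM in scMC38, with means of 247 ± 39.2 and 239 ± 64.7 CPM (SD, n = 4). Here the highest value belonged to scMC38 3 and the lowest to scMC38 4, so that the scMC38 libraries enclosed the controls.

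Dividing class II by class I within a library removes the scaling between libraries. That ratio was 0.250, 0.243, 0.328 and 0.326 in controls and 0.654, 0.789, 0.437 and 0.364 in scMC38. All 4 scMC38 libraries lay above all 4 controls, scMC38 4 by a small margin. On the log2 scale the groups differed by 0.91 in the ratio, 0.85 in the class II sum and -0.07 in the class I sum, with a pooled SD within groups of 0.40, 0.45 and 0.30. The class I difference had the opposite sign when counts were scaled by their total (0.04), without control 2 (0.017) and without scMC38 4 (0.017). As these are sums over members, they are described and not tested. Without scMC38 1 and 3 together the differences were 0.92 in the ratio, 0.64 in class II and -0.28 in class I.

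**Figure D2:**
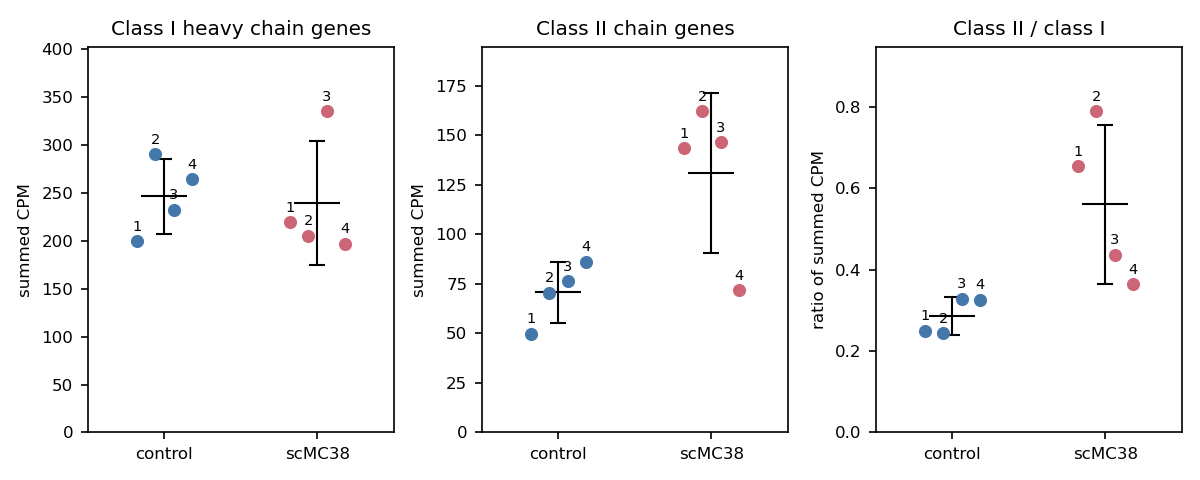
Summed CPM of class I heavy chain genes, of class II chain genes and their ratio, 1 point for each library with its replicate number, bars giving mean and SD (n = 4). Class II sums of scMC38 1, 2 and 3 (144, 162 and 147 CPM) lie above the highest control (86.2 CPM), and the ratio is higher in all 4 scMC38 libraries than in any control.

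Single genes did not pass the test. By edgeR's quasi-likelihood test, 0 of the 28 members that passed its filter on low counts were called higher and 0 lower, against 0.737% and 0.468% of all genes. At an unadjusted p under 0.05, 7 members were higher and 1 was lower, against 11.2% and 9.77% of all genes. The 7 were Cd74, H2-Aa, H2-Ab1, H2-Eb1, H2-DMa, H2-DMb1 and H2-DMb2, and the 1 was H2-Q6. DESeq2, the other tool run, called the same 7 higher and 0 members lower, where it called 6.24% and 3.99% of genes with an adjusted p. Groups did not overlap for 1 member, H2-DMb2, against 6.82% of all genes in that direction, so the separation of the members is no more frequent than the background. Without scMC38 1 and 3, edgeR again called 0 members higher and 0 lower (0.174% and 0.271% of all genes), with 2 higher and 5 lower at an unadjusted p under 0.05 (9.52% and 9.27% of all genes). H2-DMb2 was singled out after its values had been seen. The median log2 fold change was 0.96 over the 7 class II chains tested and -0.08 over the 14 class I heavy chains tested, beside 0.00087 over all genes. All 7 class II chains had a positive log2 fold change, as had 6 of the 14 class I heavy chains and 50.2% of all genes. The other 6 members had too few counts for the test: H2-M5, H2-M6-ps, H2-M9, H2-T7, H2-T11-ps and H2-Oa, with at most 57.0 counts summed over the libraries.

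**Figure D3:**
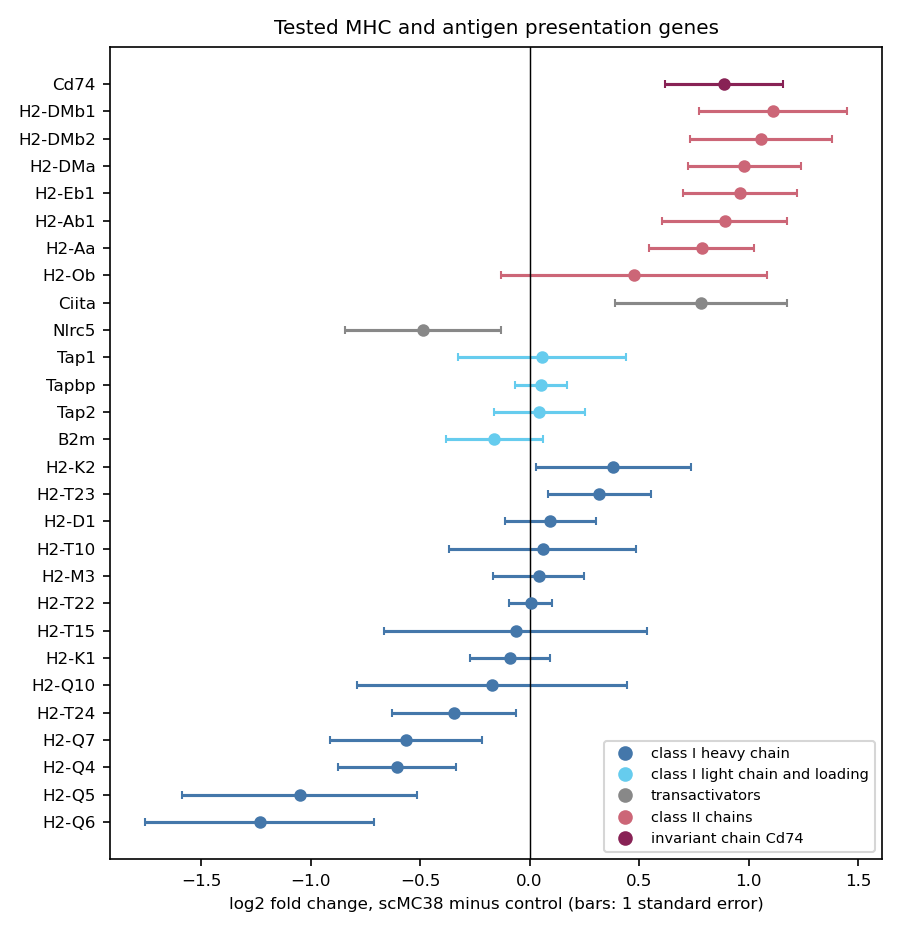
Log2 fold changes (scMC38 minus control, points) with 1 standard error (bars) of the 28 tested members, coloured by role. The class II chains and Cd74 stand between 0.48 and 1.11, and the class I heavy chains between -1.23 and 0.38 (the pseudogene H2-K2).

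Among the peptide-binding class II chains, H2-Aa, the alpha chain of I-A, stood at 17.1, 22.6, 26.3 and 28.1 CPM in controls 1 to 4 and at 43.7, 51.0, 43.6 and 23.8 CPM in scMC38 1 to 4. Its log2 fold change was 0.79 (SE 0.24, edgeR adjusted p = 0.125). The partner chain H2-Ab1 stood at 15.5, 21.3, 24.4 and 26.8 CPM in controls and 46.6, 50.2, 46.4 and 19.9 CPM in scMC38 (0.89, SE 0.29, adjusted p = 0.137). Both genes were thus high in the same 3 libraries, and scMC38 4 lay within the controls. H2-Aa and H2-Ab1, whose products pair with each other, kept a CPM ratio between 0.936 and 1.19 in all 8 libraries. H2-Eb1, the beta chain of I-E, stood at 12.8, 19.9, 20.2 and 23.8 CPM in controls and 38.8, 47.9, 41.1 and 21.4 CPM in scMC38 (0.96, SE 0.26, adjusted p = 0.100). Without scMC38 1 and 3 the log2 fold changes of H2-Aa, H2-Ab1 and H2-Eb1 were 0.69, 0.69 and 0.88 (adjusted p from 0.253 to 0.377), and without scMC38 4 H2-Ab1 was called (1.12, adjusted p = 0.0490). The mRNA of H2-Eb1 followed H2-Ab1 although its partner H2-Ea had no count.

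Cd74, the invariant chain that occupies the class II groove until peptide loading, was the most abundant class II gene. It stood at 47.0, 71.3, 75.9 and 80.4 CPM in controls and at 138, 160.1, 142 and 67.8 CPM in scMC38. The means were 68.6 ± 14.9 and 127 ± 40.6 CPM (SD, n = 4), with a log2 fold change of 0.89 (SE 0.27, edgeR adjusted p = 0.124, DESeq2 adjusted p = 0.0160). Cd74 and the summed class II chains stood close together: their CPM ratio lay between 0.933 and 1.01 in controls and between 0.945 and 0.987 in scMC38.

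The exchange factors of class II were low in CPM, and H2-DMa and H2-DMb1 followed the same libraries. H2-DMa stood at 2.46, 3.03, 2.44 and 3.61 CPM in controls and 6.34, 6.09, 7.16 and 3.15 CPM in scMC38, which gave the smallest adjusted p of all members (log2 fold change 0.98, SE 0.26, edgeR adjusted p = 0.0964). Without scMC38 4 it was called (1.18, adjusted p = 0.0490). Its partner H2-DMb1 stood at 1.59, 2.84, 2.22 and 3.28 CPM in controls and 6.63, 5.90, 6.42 and 2.48 CPM in scMC38 (1.11, SE 0.34, adjusted p = 0.125). The second beta chain, H2-DMb2, had a mean of 0.440 ± 0.115 CPM in controls and 0.915 ± 0.279 CPM in scMC38 (SD, n = 4). H2-Ob is a chain of the DM inhibitor H2-DO found mainly in B cells. It stood between 0.0910 and 0.480 CPM in controls and between 0.135 (scMC38 1) and 0.612 CPM (scMC38 3) in scMC38 (0.48, SE 0.61, adjusted p = 0.682). H2-Oa, its partner, had 27 counts over all libraries.

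**Figure D4:**
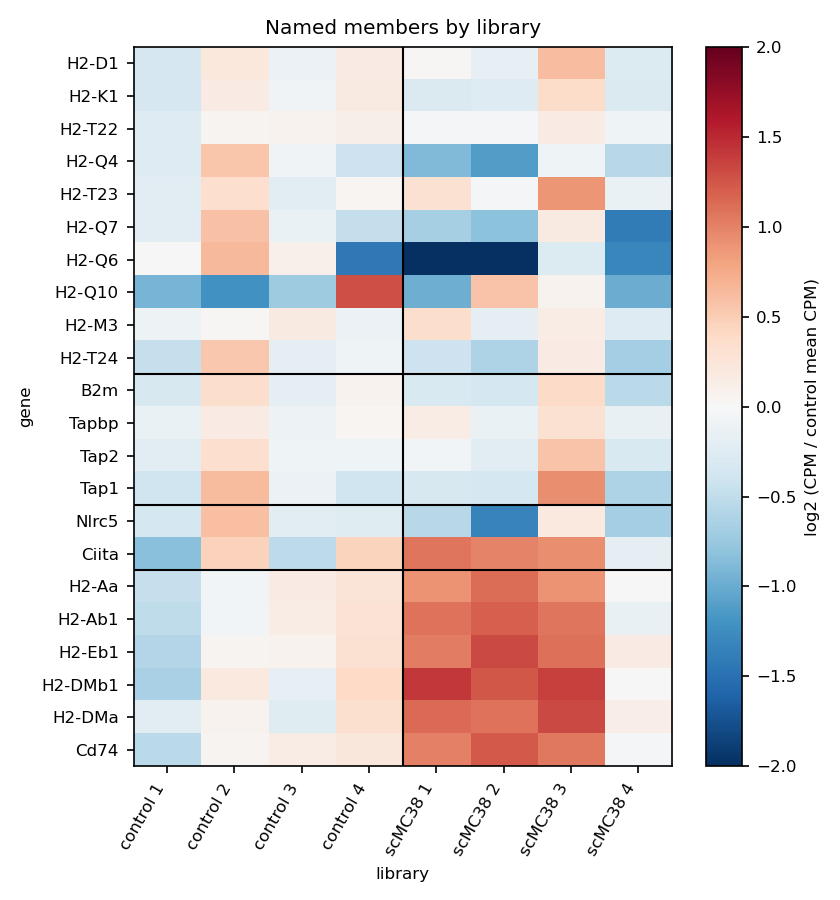
Log2 ratio of the CPM of each named member (rows, grouped into class I heavy chains, class I light chain and loading, transactivators and class II) to its control mean, for each of the 8 libraries (columns). The class II block is red in scMC38 1, 2 and 3 and near 0 in scMC38 4, and B2m, Tap1 and Tap2 are highest in control 2 and scMC38 3; colours end at -2 and 2.

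The classical class I heavy chains did not follow that pattern. H2-D1 stood at 83.2, 122, 96.5 and 117 CPM in controls and 106, 93.5, 159.99 and 86.5 CPM in scMC38 (log2 fold change 0.09, SE 0.21, edgeR adjusted p = 0.820). H2-K1 stood at 59.3, 83.8, 71.0 and 85.1 CPM in controls and 60.9, 62.6, 96.6 and 61.1 CPM in scMC38 (-0.09, SE 0.18, adjusted p = 0.803, and 0.04 with total-count scaling). For both genes scMC38 3 was highest and the other 3 scMC38 libraries lay within the controls. Together they made up 70.7% to 76.4% of the class I heavy chain CPM in controls and 74.9% to 76.5% in scMC38.

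The light chain B2m, which every class I molecule contains, stood at 107, 171, 117 and 141 CPM in controls and 108, 105, 174 and 92.0 CPM in scMC38. Its log2 fold change was -0.16 (SE 0.22, edgeR adjusted p = 0.707). Control 2 and scMC38 3 were the highest libraries of their groups, as they were for the sum of heavy chains. The peptide transporter genes had the same 2 libraries on top. Tap1 stood at 3.25, 6.64, 3.94 and 3.22 CPM in controls and 3.41, 3.35, 8.16 and 2.78 CPM in scMC38 (0.06, SE 0.39, adjusted p = 0.954). Tap2 stood at 8.94, 13.3, 9.94 and 9.94 CPM in controls and 10.16, 9.12, 15.6 and 8.47 CPM in scMC38 (0.04, SE 0.21, adjusted p = 0.928). Tapbp, which bridges the transporter and the empty heavy chain, was steadier, at 37.3, 45.7, 38.0 and 41.7 CPM in controls and 44.9, 37.0, 50.2 and 36.5 CPM in scMC38 (0.05, SE 0.12, adjusted p = 0.834). Tap1, Tap2 and Tapbp turned negative without scMC38 3 (-0.43, -0.19 and -0.045).

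The nonclassical (class Ib) heavy chains were not uniform. Genes of the Q region, whose products include the Qa-2 antigen of H2-Q7 and related genes, were mostly lower in scMC38 without passing the test. H2-Q4 stood at 14.2, 24.7, 16.1 and 12.6 CPM in controls and 9.19, 7.76, 15.9 and 11.5 CPM in scMC38 (log2 fold change -0.61, SE 0.27, edgeR adjusted p = 0.239). H2-Q6 stood at 6.16, 9.69, 6.64 and 2.31 CPM in controls and 1.45, 1.38, 5.16 and 2.52 CPM in scMC38 (-1.23, SE 0.52, adjusted p = 0.223). In both genes scMC38 1 and 2 were the lowest of all libraries, and scMC38 3 lay within the controls. H2-Q7 stood at 6.09, 10.56, 6.44 and 5.06 CPM in controls and 4.42, 3.99, 7.93 and 2.66 CPM in scMC38 (-0.56, SE 0.35, adjusted p = 0.377). The rows H2-Q4 to H2-Q7 summed to 13.7%, 15.9%, 12.9% and 7.78% of class I heavy chain CPM in controls and 6.997%, 6.45%, 8.92% and 8.65% in scMC38, with control 4 inside the scMC38 range. H2-Q10, known as a secreted class I protein of the liver, stood at 6.68 CPM in control 4 and 4.09 CPM in scMC38 2, and between 1.18 and 2.88 CPM in the other 6 libraries (-0.17, SE 0.62, adjusted p = 0.900).

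Genes of the T and M regions differed little beside their spread. H2-T23 encodes Qa-1, which presents leader peptides of other class I chains to NK cell receptors. It stood at 8.72, 12.8, 8.66 and 10.397 CPM in controls and 12.6, 9.90, 18.8 and 9.26 CPM in scMC38 (log2 fold change 0.32, SE 0.23, edgeR adjusted p = 0.462). H2-T22, a ligand of some gamma delta T cell receptors, was the steadiest class I row, at 15.4, 19.0, 19.2 and 19.8 CPM in controls and 17.98, 17.96, 20.5 and 17.3 CPM in scMC38 (0.01, SE 0.099, adjusted p = 0.983). H2-T24 had 2.12 ± 0.670 CPM in controls and 1.66 ± 0.481 CPM in scMC38, and H2-M3, which presents formylated peptides, had 1.46 ± 0.146 and 1.501 ± 0.304 CPM (SD, n = 4). The remaining tested rows, each below 1 CPM on average, were H2-Q5 (-1.05), the pseudogene H2-K2 (0.38), H2-T10 (0.06) and H2-T15 (-0.06). Their edgeR adjusted p lay between 0.298 and 0.966.

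Reads of class I genes are harder to assign than those of class II genes, because their transcripts share sequence. In GENCODE M21 transcripts, the share of 31-base words of a gene that also occur in another gene was 58.4% for H2-Q4, 64.3% for H2-Q5, 41.8% for H2-Q6, 48.0% for H2-Q7, 58.0% for H2-T22 and 59.5% for H2-T10. H2-Q5 shared most with H2-Q7 (46.2% of its words) and H2-T10 with H2-T22 (55.3%). For H2-K1 and H2-D1 the share was 17.5% and 26.7%. The share was 0% for H2-Aa and B2m, 0.504% for H2-Ab1, 1.17% for H2-Eb1 and 1.66% for Cd74, so these rows rest on words of their own. Other class II rows shared more: 35.5% of H2-DMb1 words were found in H2-DMb2. H2-DMb2 shared 36.6% of its words with other genes (29.7% with H2-DMb1). H2-Oa and H2-DMa shared 24.9% and 9.44% of their words with other genes. Values of the single rows H2-Q4 to H2-Q7, H2-T10, H2-T22, H2-T23 (49.0%), H2-DMb1 and H2-DMb2 are therefore uncertain. H2-DMb1 and H2-DMb2 are thus not fully separate entries where members are counted. H2-Q10 and H2-T24 shared 15.6% and 6.61% of their words. Words shared within the class stay in the class I sum.

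The transactivators stood at opposite signs, and neither passed the test. Ciita stood at 0.502, 1.24, 0.620 and 1.22 CPM in controls and 1.87, 1.78, 1.71 and 0.788 CPM in scMC38 (log2 fold change 0.78, SE 0.39, edgeR adjusted p = 0.292). It was thus high in the 3 libraries in which the class II chains were high, and within the controls in scMC38 4. Nlrc5 stood at 1.61, 3.10, 1.78 and 1.73 CPM in controls and 1.40, 0.814, 2.35 and 1.28 CPM in scMC38 (-0.49, SE 0.36, adjusted p = 0.456). Its highest libraries, control 2 and scMC38 3, were those with the highest B2m and Tap1.

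Levels can be compared between genes only per length, for which the longest coding transcript in GENCODE M21 was used. In controls B2m was highest, at 156 ± 33.2 CPM per kilobase, followed by H2-D1 (49.7 ± 8.50), Cd74 (48.7 ± 10.55) and H2-K1 (46.2 ± 7.50 CPM per kilobase), which did not differ beyond their spread (SD, n = 4). H2-Aa (20.9 ± 4.30), H2-Ab1 (18.2 ± 4.02) and Tapbp (14.0 ± 1.33) came next. In scMC38 the level of Cd74 was 90.1 ± 28.8 CPM per kilobase, above H2-D1 (53.1 ± 15.8) and H2-K1 (43.4 ± 10.8), while B2m stayed the highest at 139 ± 42.7 CPM per kilobase. The transactivators were lowest of the named genes: Nlrc5 stood at 0.271 ± 0.0925 and 0.193 ± 0.0850 and Ciita at 0.149 ± 0.0646 and 0.256 ± 0.0839 CPM per kilobase in controls and scMC38.

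Other genes of both presentation pathways were read from lists, and edgeR called 0 of the 65 tested on these 9 lists, against 1.2% of all genes, so that this count is near the background. Among the 5 immunoproteasome genes, which the proteasome takes up under interferon, 2 were positive and 3 negative, with a median log2 fold change of -0.03. Psmb8 stood at 4.97, 8.43, 5.92 and 5.70 CPM in controls and 6.31, 6.13, 12.2 and 5.12 CPM in scMC38 (0.25, SE 0.29, adjusted p = 0.644). Control 2 and scMC38 3 were again the highest libraries. The activator subunit Psme1 had -0.24 (SE 0.15, adjusted p = 0.401). The 4 constitutive counterparts had a median of 0.03, led by Psme3 (0.11, adjusted p = 0.389) and Psmb7 (0.08, adjusted p = 0.662). Of 7 genes for class I folding and peptide trimming, 5 were positive (median 0.13). The chaperone calnexin, Canx, had 0.16 (SE 0.069, adjusted p = 0.230) with all scMC38 libraries above all controls, and the aminopeptidase Lnpep had 0.29 (SE 0.12, adjusted p = 0.209). Among 6 tested class I-like genes outside the H2 region (median -0.13), the iron regulator Hfe stood at 17.0, 19.1, 18.6 and 21.5 CPM in controls and 16.8, 15.8, 14.9 and 15.8 CPM in scMC38 (-0.27, SE 0.085, adjusted p = 0.131). Mr1, which presents vitamin B metabolites, had -0.31 (SE 0.11, adjusted p = 0.174).

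All 9 genes of class II processing had a positive log2 fold change (median 0.41), as had 50.2% of all genes. At an unadjusted p under 0.05, 5 of them were higher, against 11.2% of all genes. edgeR called 0 of them higher (0.737% of all genes) and DESeq2 called 3 (6.24%). Cathepsin S, Ctss, which cuts the invariant chain, stood at 5.78, 6.99, 6.56 and 8.65 CPM in controls and 21.4, 12.5, 19.8 and 6.91 CPM in scMC38 (1.12, SE 0.32, edgeR adjusted p = 0.113). Its libraries fell into the same pattern as Cd74, with scMC38 4 among the controls. The ligase Marchf1, which removes class II from the surface, stood at 0.569, 1.33, 1.0998 and 1.06 CPM in controls and 3.86, 1.67, 2.79 and 1.71 CPM in scMC38 (1.31, SE 0.36, adjusted p = 0.105). Of 7 enhanceosome genes, whose products bind the promoter module, 3 were positive and 4 negative (median -0.05). The NF-Y subunit Nfyb stood between 21.3 and 24.1 CPM in controls and between 18.3 and 20.5 CPM in scMC38 (-0.23, SE 0.069, adjusted p = 0.125), and Rfx5 had 0.18 (adjusted p = 0.514). In the 6 tested costimulation genes (median 0.18), Icam1 had 0.78 (SE 0.23, adjusted p = 0.116) and Cd83 had -0.38 (adjusted p = 0.625).

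Interferon gamma is the main inducer of both MHC classes. Ifng itself had no count in scMC38 and at most 0.0200 CPM in controls. Among 9 tested genes of its signalling chain (median -0.02), the factor Irf8, which is made mainly by myeloid and B cells, stood at 5.89, 5.37, 5.22 and 5.26 CPM in controls and 8.99, 8.48, 13.4 and 6.03 CPM in scMC38 (log2 fold change 0.76, SE 0.22, edgeR adjusted p = 0.111). The receptor chain Ifngr2 had -0.16 (adjusted p = 0.321). Of 12 tested interferon-gamma targets outside the MHC, 10 were negative (median -0.69), where 50.2% of all genes were positive. At an unadjusted p under 0.05, 9 were lower, against 9.77% of all genes. edgeR called 0 of them (1.2% of all genes). DESeq2 called 3 of the 13 listed lower (3.99% of genes with an adjusted p). The chemokine gene Cxcl9 stood at 1.11, 2.55, 0.920 and 1.60 CPM in controls and 0.236, 0.284, 0.427 and 0.492 CPM in scMC38 (-2.09, SE 0.40, adjusted p = 0.0510). Cd274, the checkpoint ligand PD-L1, stood at 3.57, 8.32, 4.999 and 3.93 CPM in controls and 1.77, 1.95, 2.59 and 2.17 CPM in scMC38 (-1.29, SE 0.28, adjusted p = 0.0716). These targets summed to between 104 and 165 CPM in controls and between 85.7 and 99.2 CPM in scMC38. In scMC38 1, 2 and 3 the class II chains stood above their control mean and these targets below theirs. Among controls the targets were highest in control 2 (165 CPM) and lowest in control 1 (104 CPM). The part of interferon gamma in these values was not tested.

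Markers of cells that carry class II were high in some of the same libraries. In bulk muscle, more cells of a type and more RNA per cell cannot be told apart. The 14 macrophage and monocyte genes, all with counts, summed to 190.0, 220.2, 210.2 and 348 CPM in controls and 530.0, 329, 703 and 173 CPM in scMC38. The sums of scMC38 1 and 3 lay above all controls, and those of scMC38 2 and 4 did not. The complement gene C1qa, made by tissue macrophages, stood at 14.99, 17.99, 15.7 and 19.4 CPM in controls and 51.7, 32.2, 33.7 and 14.0 CPM in scMC38. C1qa and Cd74 were thus high in the same 3 libraries, C1qa most in scMC38 1 and Cd74 most in scMC38 2. The 10 dendritic cell genes summed to 14.5 to 17.8 CPM in controls and to 22.9, 20.6, 18.7 and 10.99 CPM in scMC38. The members did not go one way. Zbtb46, also made by endothelial cells and the largest contributor to the control sums, stood at 8.81, 12.1, 8.12 and 6.79 CPM in controls and 6.73, 6.64, 6.31 and 5.75 CPM in scMC38. Clec10a, also made by macrophages, stood at 2.34, 2.34, 3.68 and 4.68 CPM in controls and 9.95, 8.59, 5.27 and 2.95 CPM in scMC38.

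The 8 B cell genes, all with counts, summed to 16.1 to 22.02 CPM in controls and to 19.6, 15.4, 26.5 and 14.6 CPM in scMC38. Ebf1, which is not limited to B cells, gave between 13.8 and 20.2 CPM of each sum. Cd79a, a B cell receptor chain, was at 4.20 CPM in scMC38 3, 0.0757 CPM in scMC38 2 and between 0.160 and 0.554 CPM in controls. Cd79b was at 2.24 CPM in scMC38 3, 0.341 CPM in scMC38 2 and between 0.127 and 0.461 CPM in controls. The 5 pan-leukocyte genes summed to 17.2 to 23.7 CPM in controls and to 73.5, 40.7, 214 and 24.2 CPM in scMC38. Beside these stood class II sums of 144, 162, 147 and 71.7 CPM in scMC38 1 to 4. In scMC38 2 the marrow gene Mpo was at 0.0568 CPM and the bone gene Ibsp at 0. The 10 T and NK cell genes summed to at most 8.35 CPM, in scMC38 3, and to at most 2.40 CPM elsewhere. Nkg7 alone gave 6.15 CPM of the sum in scMC38 3 and 0.827 CPM of that in scMC38 1. The part of macrophage, dendritic and B cell RNA in the class II values was not tested.

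For class I, the 7 endothelial genes summed to 424, 570, 350.2 and 333 CPM in controls and to 273, 326, 456 and 376 CPM in scMC38. Vessel cells carry much class I, and control 2 and scMC38 3 had the highest sums of their groups in both measures. The other 6 libraries were not in the same order in both. The endothelial genes did not go one way: 2 had a positive and 5 a negative log2 fold change, from -1.13 to 0.63. The 5 immunoproteasome genes summed to 82.5 CPM in control 2 and 78.0 CPM in scMC38 3, and to between 54.1 and 61.97 CPM elsewhere. Interferon-gamma targets were highest in control 2 (165 CPM) but stood at 96.5 CPM in scMC38 3. The part of endothelial RNA in the class I values was not tested.

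**Figure D5:**
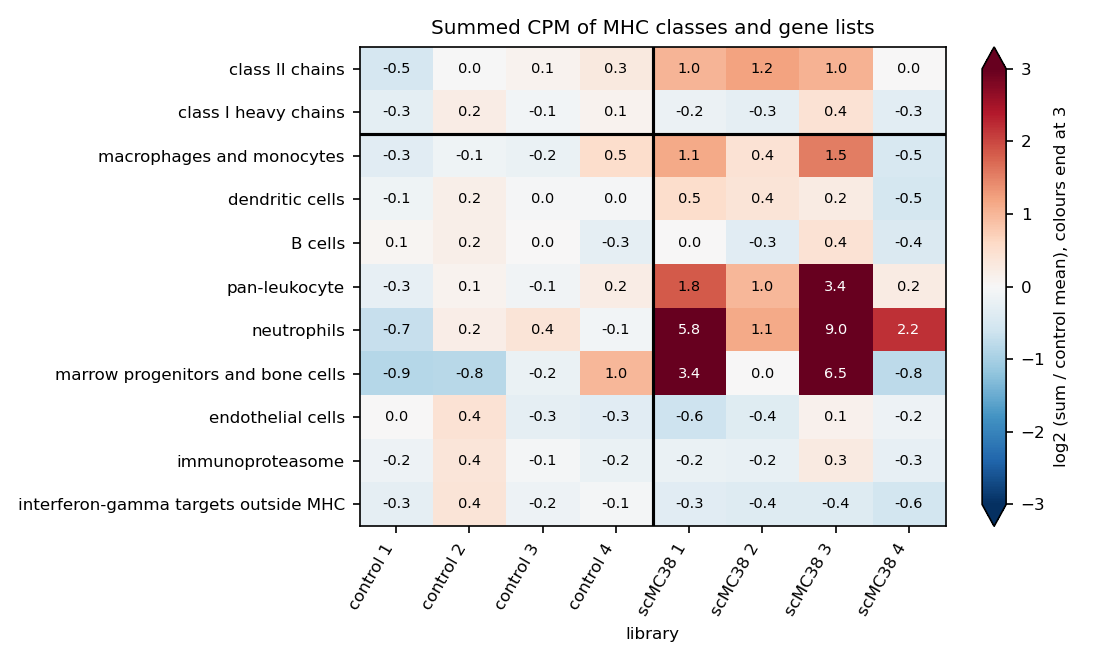
Summed CPM of the class II and class I chains and of 9 gene lists (rows) in each library (columns), as log2 ratio to the control mean, with the ratio printed in each field. Class II stands at 1.0, 1.2, 1.0 and 0.0 in scMC38 1 to 4, while neutrophil and marrow genes are highest in scMC38 3 and 1.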

How the data were processed

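The authors deposited a gene table of estimated counts without scaling; 49.3% of nonzero values carry a fraction. The labels name the RNeasy Mini Kit and the Universal Plus mRNA-seq kit, and Salmon 1.10.3, R 4.4.3, FastQC 0.12.1, fastp 1.0.1, MultiQC 1.30 and build GRCm39 stand in the submitters' processing notes. Annotation release, strand handling and the way counts were summed to genes: not given in the sources used here. Of 35667 rows, 144 without a symbol (at most 0.00403% of a library) were left out, rows of 26 repeated symbols were summed and values rounded. Columns were matched by library name and groups taken from sample titles.

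Differences (scMC38 minus control) were tested on the whole table with edgeR 4.0.16 in R 4.3.3: filterByExpr defaults (minimum count 10, total 15), TMM scaling, robust quasi-likelihood F test, no covariate, Benjamini-Hochberg adjustment over 14112 genes. Unless DESeq2 1.42.0 is named, adjusted p-values are edgeR's. CPM is TMM-scaled, and each SE was derived from the F statistic. The test was checked on simulated counts. Library totals of 50466729 to 62107372 keep counting error small above a few CPM. Library size, filter, tool, replicate block and left-out libraries were tried as alternatives.

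Named genes are the 7 listed by symbol and every tested H2- gene with a mean of at least 1 CPM, and from each pathway list the called genes or the 2 with the smallest p; the marker, library-comparison and Q-region values beyond these were chosen after they were seen. Members and lists were chosen with earlier results of these data known. Values of some single marker genes are not reported here. Lengths come from GENCODE M21.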

Additional observations from a re-analysis of the deposited data

Results flagged for a closer look

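In 50 groups of 4 values (22 named members, the 2 class sums and their ratio, each in both groups, on the log2 scale), 7 had an extreme library whose gap to its nearest neighbour exceeded the 95% critical value of Dixon's test, as a share of the range of the group. Chance gives about 5% of groups, and these genes vary together. In scMC38, replicate 4 lay far below the others in H2-Ab1 (0.915 of the range), H2-DMb1 (0.882), Ciita (0.893) and the class II sum (0.850). Replicate 3 lay far above the others in H2-K1 (0.940). Among controls, replicate 2 was far above in Nlrc5 (0.846) and replicate 1 far below in H2-T22 (0.839).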

How the results depend on the processing

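With edgeR no member was called under the alternatives run except without scMC38 4, so leaving out 1 library gave 0 to 2 members higher (H2-Ab1 and H2-DMa, both with adjusted p = 0.0490) and 0 lower; DESeq2 called 7 higher. Over all genes, higher and lower calls were 216 and 51 with total counts (80.9% higher against 61.2%, the median of all genes at 0.11), 959 and 613 with DESeq2, 66 higher without a filter, 25 and 39 without scMC38 1 and 3, 0 and 0 without control 1 and 2 (1605 genes at an unadjusted p under 0.05), and 1 to 59 higher and 1 to 52 lower with 1 library left out. With the replicate block they were 0 and 1. Same-numbered libraries did not deviate together (correlations from -0.28 to -0.01). As these are deviations from means of few libraries, they cannot exclude a pairing, and the labels do not state one.

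The class II genes named, Cd74 and Ciita stayed positive in all 16 alternatives, Cd74 between 0.69 and 1.09, and H2-Q4, H2-Q6, H2-Q7, H2-T24, B2m and Nlrc5 stayed negative. The other 9 named members changed sign at least once. H2-K1 was 0.035 with total counts. With the replicate block H2-Q10 was 0.12 and Tap1 -0.021. Without scMC38 1 and 3, H2-D1 was -0.19, H2-M3 -0.20, H2-Q10 0.013, H2-T22 -0.040, H2-T23 -0.061, Tap1 -0.45, Tap2 -0.24 and Tapbp -0.12. Without control 1 and 2, H2-M3 was -0.013 and H2-T22 -0.10. With 1 library left out, H2-D1 ran from -0.13 to 0.20, H2-M3 from -0.081 to 0.13, H2-Q10 from -0.54 to 0.76, H2-T22 from -0.073 to 0.044, Tap1 from -0.43 to 0.35, Tap2 from -0.19 to 0.17 and Tapbp from -0.045 to 0.11. The cause was not tested. The class sums and their ratio moved by less than the pooled SD in every alternative run. The class I difference, close to 0, changed sign with total counts, without control 2 and without scMC38 4.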
